A study of Mus musculus with 8 samples.

Results

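The cells described here are brain macrophages with Fabp5, Gpnmb, Pf4 and Ms4a7 transcripts, 487 of the 39945 cells in the files of 8 single-cell libraries. A cell was a member when at most 10% of its UMIs (unique molecular identifiers, 1 per captured RNA molecule) were mitochondrial and several gene sums passed fixed limits. Per 10000 UMIs of the cell, Gpnmb and Fabp5 summed to at least 20, Pf4 and Ms4a7 to at least 5, the microglial genes P2ry12, Siglech, Gpr34, Sparc, Olfml3 and Fcrls to under 10, and H2-Aa, H2-Ab1 and H2-Eb1 to under 50. At least 1 Ms4a7 UMI, no Lyve1 UMI, at most 2 Csf3r UMIs and no Cd3e or Cd79a UMI were also required. The members were chosen by these measured values, which are therefore given below as a description. No test sets the levels of members against those of other cells, and only effects of hemisphere and genotype are compared by test with those in other macrophages.

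Lipid-associated macrophages are a state that macrophages take up where they clear lipid-rich debris, and they are known from obese fat tissue, atherosclerotic plaque and injured brain. The receptor Trem2 binds lipids and apolipoproteins and signals through Tyrobp. The cargo is broken down in lysosomes, fatty acids are carried by the Fabp proteins and stored in droplets coated by Plin2, and cholesterol leaves through Abca1 and Abcg1 onto Apoe. After stroke such cells derive in part from monocytes that enter from the blood.

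The mice were male C57BL/6J animals aged 8 to 9 weeks, with the genotype labelled Prdx1-/- or WT (Prdx1+/+). Prdx1 encodes peroxiredoxin 1, an enzyme that removes hydrogen peroxide. All had the middle cerebral artery blocked for 60 min by an intraluminal suture under 1.5% isoflurane, and the ipsilateral (occluded side) and contralateral hemispheres were taken at 48 h or 24 h, the labels not saying from which step, so the contralateral libraries also come from mice with a stroke. Live cells were sorted after enzymatic dissociation and a Percoll step, with 1 library per combination of time, genotype and hemisphere; the labels give neither the number of animals per library nor whether they were pooled. Unoperated or sham brains were not analysed here. The p-values below therefore do not measure the spread between animals. Those of the shares come from rearranging these libraries. Those of genes come from fits with 1 or 2 residual degrees of freedom, which share the estimate of spread across genes.

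The libraries held 4189 to 5759 cells and 39433266 to 70111421 UMIs, and 39608 cells passed the mitochondrial limit. Across libraries, 203 of 39742 distinct barcodes occurred more than once, 5 members had a barcode that also occurs in another library, and no barcode was a member in more than 1. Prdx1 in members stood at 11.9 CPM (counts summed over the members of a library, per 1000000 of all their UMIs) in the ipsilateral 48 h library labelled Prdx1-/- and at 0 CPM in the contralateral one, against 1841 and 1756 CPM in the matched WT libraries. At 24 h the ipsilateral library labelled Prdx1-/- held 474 CPM in its 15 members, against 1341 CPM in the 5 WT members. The 24 h library thus goes against its label. It counts under that label in the comparison of shares between genotypes and in the fit with at least 5 members per library, while the other genotype values of genes rest on the 48 h libraries.

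The label of the cells was checked against their genes. Members had 46.8 to 513.7 CPM Mrc1 in the 5 libraries with at least 10 members, and the general macrophage genes Lyz2 and Cd68 averaged 11549 ± 1092 and 1266 ± 78.0 CPM at 48 h (SD, n = 4 libraries). Of 18 genes of the lipid-associated program, 14 averaged at least 20 CPM at 48 h. The 4 below that level were Lpl (16.2 CPM), Itgax (17.6 CPM), Igf1 (1.01 CPM) and Mmp12 (0.0769 CPM), which mark this state in other tissues or in microglia. The 15 ipsilateral 24 h Prdx1-/- members summed to 30983 CPM over the 18 genes, against 49070 to 57575 CPM in 48 h members. At 48 h, macrophages that missed only the Gpnmb and Fabp5 limit had 37045 to 42668 CPM. Those 15 had 2612 CPM of border macrophage genes (1147 to 1645 CPM in 48 h members). Their lipid storage genes summed to 4780 CPM (3005 to 3861 CPM in 48 h members). Their cholesterol efflux genes summed to 7874 CPM, against 22306 to 27724 CPM in 48 h members and 16308 to 21901 CPM in those other macrophages. Lysosomal genes came to 22854 CPM, against 33852 to 37559 and 23266 to 25830 CPM. Chemokines stood at 58060 CPM (11140 to 14020 CPM in 48 h members). The program, efflux and lysosomal lists thus go against the name in these 15 cells, while lipid storage goes with it. Mast cell genes were at 0 for 6 of 6 in the 48 h libraries, and the summed markers stayed at 0 to 2.0 CPM for T and NK cells, 4.38 to 8.14 CPM for B cells and 0 to 5.88 CPM for dendritic cells. Those of endothelium came to 112 to 199 CPM, of oligodendrocytes to 52.9 to 79.4 CPM, of astrocytes to 20.01 to 36.3 CPM and of 14 microglial genes outside the rule to 1523 to 2118 CPM, against 19092 to 40654 CPM in gated microglia. The microglial factor Sall1 was at 0 to 2.94 CPM, against 139 ± 49.6 CPM in gated microglia. Members also held 684 to 1273 CPM of 15 neutrophil genes and 136 to 323 CPM of 5 erythrocyte genes, and the part of free RNA in these was not tested.

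Gpnmb was not seen in every member. The median member had 54.3 UMIs of Gpnmb and Fabp5 per 10000. Fabp5, a fatty acid carrier on chromosome 3 (10012548 to 10016607, GRCm38), reached the limit by itself in 463 of 487 members. Gpnmb, a lysosomal glycoprotein on chromosome 6 (49036546 to 49070929), did so in 29. A Gpnmb UMI was seen in 353 members (72.5%) and a Pf4 UMI in 410 (84.2%), at a median of 18215 UMIs per cell. Pf4, a platelet and macrophage chemokine, lies on chromosome 5 (90772435 to 90773383) and the membrane protein Ms4a7 on chromosome 19 (11321039 to 11336146). With each cell thinned to 5000 UMIs, Gpnmb was seen in 39.0% of members in the ipsilateral 48 h Prdx1-/- library and in 58.6% in the WT one, against 1.62% and 2.10% of gated neutrophils, which should lack it (median depths of 19920 and 18024 UMIs in members and 4080 and 3555.5 in neutrophils; 1000 and 1051 neutrophils and 0 and 2 members were too shallow to thin). Only 2 of 15 members at 24 h in the ipsilateral Prdx1-/- library had a Gpnmb UMI, while all 15 had Pf4, at a median of 159 UMIs. Just inside the limit, 47 members had 20 to 25 UMIs per 10000, and just outside it 62 cells that met every other criterion had 15 to 20.

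Members were found mostly at 48 h in the occluded hemisphere. At 48 h they made up 77 of 5048 cells (1.53%, 95% exact binomial interval 1.21 to 1.90) in the ipsilateral Prdx1-/- library and 347 of 5137 (6.75%, 6.08 to 7.48) in the ipsilateral WT library. The contralateral libraries of that time held 17 of 4319 (0.394%, 0.229 to 0.629) in Prdx1-/- and 26 of 4157 (0.625%, 0.409 to 0.915) in WT. At 24 h there were 15 of 5701 (0.263%, 0.147 to 0.434) ipsilaterally in Prdx1-/- and 5 of 5305 (0.0943%, 0.0306 to 0.220) in WT. No member was seen in the contralateral 24 h libraries, 0 of 5200 in Prdx1-/- and 0 of 4741 in WT. The upper limits of their 95% exact binomial intervals were 0.0709% and 0.0778%. The intervals and limits cover counting error only. The 15 ipsilateral 24 h Prdx1-/- cells count as members by the rule, although their program genes went against the name.

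**Figure D1:**
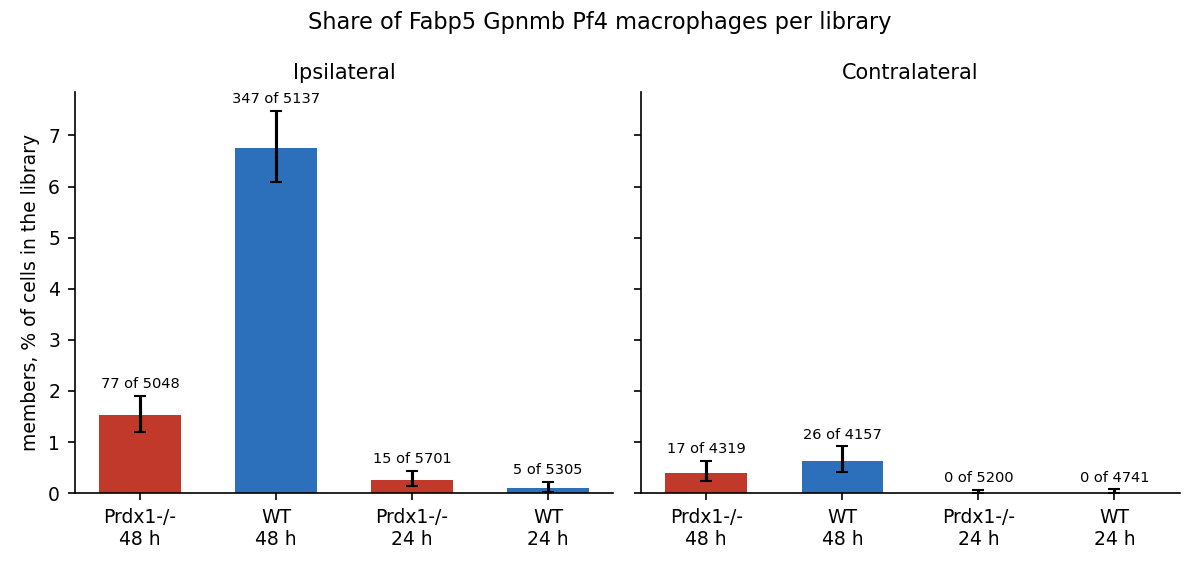
Members as a percentage of the cells with at most 10% mitochondrial UMIs, 1 bar per library, with 95% exact binomial intervals and the counts above the bars. The ipsilateral 48 h WT library stands highest at 6.75%, and the contralateral 24 h libraries are at 0.

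Every 48 h library lay above every 24 h library. The mean log2 share differed by 4.96 (48 h minus 24 h, exact permutation test, two-sided, p = 0.0286, the smallest that 4 against 4 libraries allow; 0.0857 adjusted over the 3 factors, which misses 0.05). Without any one of the 48 h libraries the difference was 4.16 to 5.51 and no longer passed (exact permutation p = 0.0571). The share averaged 2.32% ± 2.99 at 48 h and 0.0893% ± 0.124 at 24 h (SD, n = 4 each). The ipsilateral libraries averaged 2.16% ± 3.13 and the contralateral ones 0.255% ± 0.309 (SD, n = 4 each), with a log2 difference of 3.36 that did not pass (exact permutation p = 0.2, adjusted 0.3), although the ipsilateral library was higher in each of the 4 matched pairs (exact p = 0.125, the smallest that 4 pairs allow). Prdx1-/- libraries averaged 0.546% ± 0.673 and WT libraries 1.87% ± 3.27 (SD, n = 4 each), a log2 difference of -0.38 (exact permutation p = 0.857) whose sign turned without the ipsilateral 48 h WT library (1.18), the contralateral 48 h WT library (0.04) or the contralateral 24 h Prdx1-/- library (1.08). Without the ipsilateral 24 h library labelled Prdx1-/- it was -0.53 (exact permutation p = 0.857).

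The difference between times was also present among macrophages alone. Macrophages that met every criterion except the Gpnmb and Fabp5 limit (below 20, called Gpnmb Fabp5 low macrophages here) numbered 924. Members made up 25.2% of both kinds together in the ipsilateral 48 h Prdx1-/- library and 43.2% in the WT one. The contralateral shares were 23.6% in Prdx1-/- and 44.8% in WT. At 24 h the ipsilateral shares were 14.3% in Prdx1-/- and 12.5% in WT, and the contralateral shares were 0% of 19 and 0% of 7 low macrophages. The log2 difference between times was 2.15 by this measure, which was added after the data were seen (exact permutation p = 0.0286, not adjusted). As a share of all macrophage and monocyte cells it was 3.50 (exact permutation p = 0.0286, not adjusted). Between genotypes the added measure gave -0.72 (exact permutation p = 0.571). Member cells were similar in depth to the low macrophages, with medians of 18215 and 17204.5 UMIs.

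The levels of the lipid-associated program separated members from the low macrophages at 48 h by amounts that differed widely between genes. Of its 18 genes, 11 were higher in members in 4 of 4 libraries and 1 was lower, where 14.9% of 5274 genes were higher and 14.6% lower in 4 of 4. The fatty acid carrier Fabp4 stood furthest apart, at 16.3, 82.3, 61.8 and 75.3 CPM in members (ipsilateral Prdx1-/- and WT, then contralateral Prdx1-/- and WT), against 3.48, 4.84, 2.09 and 0 CPM in low macrophages. Lgals3, a galectin that binds damaged lysosomes, averaged 6073 ± 507 CPM in members and 3457 ± 308 CPM in low macrophages (SD, n = 4 libraries here and below). Cd63, a lysosomal membrane tetraspanin, averaged 1619 ± 186 and 892 ± 68.2 CPM, and the acid lipase Lipa 232 ± 10.1 and 137 ± 21.7 CPM. The droplet coat Plin2 averaged 2182 ± 229 CPM in members and 1582 ± 298 CPM in low macrophages. Trem2 differed less, at 659 ± 68.1 and 533 ± 54.8 CPM, and its partner Tyrobp averaged 2801 ± 118 CPM in members and 3022 ± 282 CPM in low macrophages. Both populations thus hold the receptor, and the larger differences lie in the lysosome and the lipid carriers.

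Lysosomal genes formed the broadest group: 18 of 26 were higher in members than in low macrophages in 4 of 4 libraries and 1 was lower (Gm2a, 238 ± 41.1 and 279 ± 35.9 CPM). Psap, the precursor of activators of sphingolipid breakdown, averaged 4014 ± 180 CPM in members and 2364 ± 128 CPM in low macrophages. The protease Ctsb averaged 6243 ± 450 and 3568 ± 47.4 CPM and the protease Ctsd 5809 ± 369 and 3609 ± 511 CPM. Naglu, which degrades heparan sulfate, averaged 54.9 ± 10.0 and 29.4 ± 6.42 CPM, and Gga2, a sorting adaptor between Golgi and lysosome, 56.4 ± 8.93 and 24.8 ± 3.82 CPM. Lyst, which controls lysosome size, averaged 53.5 ± 10.1 CPM in members and 23.9 ± 8.22 CPM in low macrophages. The transcripts of Mitf and Tfeb, factors that drive lysosomal genes, did not share this. Mitf averaged 30.1 ± 5.83 and 31.2 ± 8.95 CPM and Tfeb 23.3 ± 8.32 and 19.8 ± 7.27 CPM. Of 14 genes on the list of such factors, 1 was higher and 1 lower in 4 of 4 libraries. The activity of their proteins was not measured.

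Genes of iron and heme handling were also higher, 6 of 15 in 4 of 4 libraries with none lower. Hmox1, which splits heme, averaged 1664 ± 583 CPM in members and 874 ± 375 CPM in low macrophages. The ferritin chains Fth1 and Ftl1 averaged 32847 ± 3801 and 25100 ± 1986 CPM in members, against 24562 ± 3971 and 17107 ± 3091 CPM in low macrophages. Of 16 genes of lipid storage, 7 were higher and 1 lower, and of 14 genes of cholesterol efflux, 4 were higher and 1 lower. Among the latter, Abcg1 averaged 102.2 ± 11.98 CPM in members and 67.6 ± 14.2 CPM in low macrophages. Cholesterol synthesis went the other way in the same cells, with 8 of 14 genes lower in members in 4 of 4 libraries and none higher, although only 2 of the 14 averaged 20 CPM.

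Several monocyte genes were lower in members. Of 14 monocyte genes, 7 were lower than in low macrophages in 4 of 4 libraries and none was higher, while summed monocyte genes ran from 9955 to 13348 CPM in members, from 9640 to 15617 CPM in low macrophages and from 21793 to 28524 CPM in gated monocytes. The proteoglycan Vcan averaged 50.6 ± 16.4 CPM in members and 139 ± 48.9 CPM in low macrophages, and the chemokine receptor Ccr2 368 ± 92.1 and 624 ± 67.0 CPM. The chemokine Ccl24 averaged 42.4 ± 28.8 and 113 ± 48.1 CPM, Mrc1 74.1 ± 24.2 and 115 ± 40.6 CPM, and the inflammatory cytokine Il1b 2537 ± 882 and 3636 ± 965 CPM. Of 15 antigen-presentation genes 5 were lower and 1 higher, and of 14 border macrophage genes 6 were lower and 1 higher, with summed levels that overlapped between the populations in both lists. Cd74, the invariant chain of MHC class II, averaged 99.1 ± 82.5 and 382 ± 171 CPM, and the same limit on class II genes applied to both populations. Arg1, which consumes arginine, did not separate them, at 2349 ± 726 CPM in members and 2392 ± 1104 CPM in low macrophages.

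Against gated monocytes and microglia of the same libraries the differences were far larger. Arg1 averaged 2349 CPM in members, against 124 ± 81.8 CPM in monocytes and 6.15 ± 5.03 CPM in microglia. The synaptogyrin Syngr1 averaged 348 ± 65.9 CPM in members and 5.08 ± 2.50 CPM in monocytes, Spp1 7452 ± 3385 and 264 ± 63.6 CPM, and the chemokine Ccl7 876 ± 182 and 27.7 ± 24.3 CPM. Monocytes in turn had more Plac8 (165 ± 93.2 CPM in members, 2483 ± 365 CPM in monocytes). Podoplanin (Pdpn) averaged 168 ± 44.2 CPM in members and 1.38 ± 0.723 CPM in microglia, and the cholesterol sensor Nr1h3 69.6 ± 13.6 and 0.671 ± 0.309 CPM. Trem2 was higher in microglia, at 1543 ± 455 CPM.

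**Figure D2:**
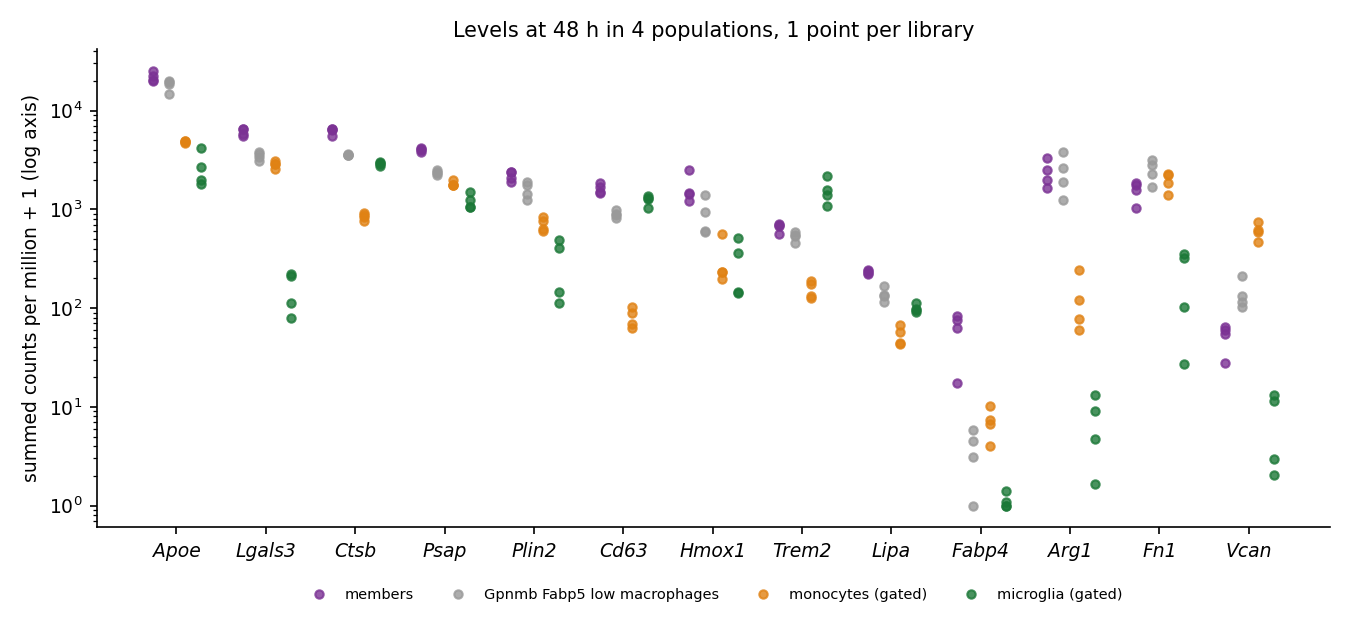
Summed levels of 13 genes at 48 h in members, Gpnmb Fabp5 low macrophages, gated monocytes and gated microglia, with 1 point per library and population, on a log axis with 1 CPM added. Fabp4 separates members most widely from the low macrophages, Arg1 is at like levels in both, and Vcan lies lower in members than in the low macrophages.

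Members differed among themselves in Pf4 and Gpnmb. In the ipsilateral 48 h WT library, the 49 members without a Pf4 UMI had 985 CPM Arg1, 9058 CPM Lgals3, 832 CPM Gpnmb and 798 CPM Isg15, against 2670, 6162, 468 and 319 CPM in the 298 with one. The contralateral 48 h WT library had 11 members without Pf4 and 15 with it, with the same order in each of these genes: Arg1 at 1296 and 2344 CPM, Lgals3 at 8204 and 5491 CPM, Gpnmb at 1158 and 439 CPM and Isg15 at 1400 and 287 CPM. Members with no Gpnmb UMI in the ipsilateral libraries had more Pf4 than those with one: 8249 against 3078 CPM in Prdx1-/-, and 3984 against 2769 CPM in WT. They had less Fabp4, at 6.59 against 22.2 CPM in Prdx1-/- and 18.9 against 99.3 CPM in WT. Their median depth was also lower (19607 against 20767 UMIs in Prdx1-/-, 16598 against 18212 UMIs in WT), and its part in these values was not tested.

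The genotype comparison asked how members without Prdx1 differ at 48 h, the time at which the label holds. With edgeR's quasi-likelihood test, 104 of 5998 genes (1.73%) passed an adjusted p of 0.05 between Prdx1-/- and WT members, 22 higher (0.367%) and 82 lower (1.37%) in Prdx1-/-, and 94 of them had the same sign in both hemispheres. The fit had 1 residual degree of freedom. Each genotype had 1 library per hemisphere at 48 h, and the 2 hemispheres served as its replicates. The SE and p-values come from this fit and cannot show the spread between animals of a genotype. DESeq2 called 3 genes (0.0217% of 13818 tested), Prdx1, Isg15 and Rsad2, all lower in Prdx1-/-, and a fit that added the 5 members of the ipsilateral 24 h WT library called 1, Ifit3. The calls below are those of the first fit.

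Interferon-stimulated genes fell together in Prdx1-/- members. These genes are switched on when type I interferon activates a transcription factor complex, which binds a short element in their promoters, and many of their products block viral replication. Of 18 on the list, 17 were tested and 17 of 17 fell, where 1.37% of all genes fell, with a median log2 difference of -1.37 beside 0.01 over all genes. In both the ipsilateral and the contralateral pair the Prdx1-/- library was lower for 17 of 17.

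Isg15, a ubiquitin-like modifier (chromosome 4, 156199424 to 156200818, minus strand), had 128 CPM in the ipsilateral and 203 CPM in the contralateral Prdx1-/- members, against 376 and 698 CPM in the WT members. It fell by 1.70 ± 0.16 on the log2 scale (SE, edgeR adjusted p = 2.7e-22; DESeq2 adjusted p = 0.000195). The groups did not overlap. Rsad2, which encodes viperin (chromosome 12, 26442746 to 26456452, minus strand), had 23.8 and 61.8 CPM in Prdx1-/- members, against 111 and 242 CPM in WT members, and fell by 2.18 ± 0.21 (SE, edgeR adjusted p = 5.3e-21; DESeq2 adjusted p = 0.0346). Ifit3, which binds viral RNA with its relatives (chromosome 19, 34583531 to 34588731), had 17.5 and 70.6 CPM in Prdx1-/- members, against 76.9 and 269 CPM in WT members (log2 difference -2.09 ± 0.22, SE, edgeR adjusted p = 4.9e-18). Ifit1 had 4.38 and 38.2 CPM in Prdx1-/- members, against 49.6 and 63.1 CPM in WT members, and fell by 2.34 ± 0.31 (SE, edgeR adjusted p = 2e-11). The ipsilateral Prdx1-/- library was the lowest of the 4 for Isg15, Rsad2, Ifit3 and Ifit1. The regulator Irf7 fell by 0.97 ± 0.17 and the membrane protein Ifitm3, the most abundant of the list, by 0.78 ± 0.16 (SE, n = 2 libraries of 48 h in each genotype).

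The promoters of the 4 most strongly changed of these genes that hold the element are shown because the genes moved together, from RefSeq (GRCm38.p6), as the 250 bases before each start on the gene's strand, with matches to the element GAAANNGAAA on either strand in capitals. Isg15 is chr4:156200819-156201068 on the minus strand, Rsad2 chr12:26456453-26456702 on the minus strand, Ifit3 chr19:34583279-34583528 and Ifit1 chr19:34640639-34640888 on the plus strand.
Isg15: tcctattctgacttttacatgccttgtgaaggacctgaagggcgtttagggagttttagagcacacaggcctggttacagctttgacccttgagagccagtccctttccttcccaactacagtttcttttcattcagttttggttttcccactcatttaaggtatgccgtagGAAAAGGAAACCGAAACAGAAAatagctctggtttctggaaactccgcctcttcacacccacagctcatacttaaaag
Rsad2: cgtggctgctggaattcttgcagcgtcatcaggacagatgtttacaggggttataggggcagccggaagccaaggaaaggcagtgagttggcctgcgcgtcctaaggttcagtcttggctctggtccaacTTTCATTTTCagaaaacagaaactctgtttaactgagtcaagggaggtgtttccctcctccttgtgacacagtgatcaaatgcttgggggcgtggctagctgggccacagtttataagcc
Ifit3: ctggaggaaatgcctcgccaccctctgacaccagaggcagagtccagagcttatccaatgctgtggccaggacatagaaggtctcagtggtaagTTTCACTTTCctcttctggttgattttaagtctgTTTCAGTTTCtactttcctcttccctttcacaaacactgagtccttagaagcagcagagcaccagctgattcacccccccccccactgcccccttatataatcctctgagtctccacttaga
Ifit1: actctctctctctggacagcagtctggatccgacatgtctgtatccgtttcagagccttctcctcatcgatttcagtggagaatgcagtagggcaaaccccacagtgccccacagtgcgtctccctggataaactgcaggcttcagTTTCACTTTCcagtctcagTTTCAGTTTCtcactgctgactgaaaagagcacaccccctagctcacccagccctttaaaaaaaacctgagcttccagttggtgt

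Overlapping matches in Isg15 merge into 1 run of capitals. The table held promoters for 13 of the 18 listed genes, and 7 of them (53.8%) had a match in this window, against 3.73% of 4800 genes fitted in the members and 3.46% of 27025 genes in the table. The listed genes were chosen as interferon-stimulated, so a higher share of matches could be foreseen and says nothing about genotype. A match describes letters in the window and not binding.

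**Figure D3:**
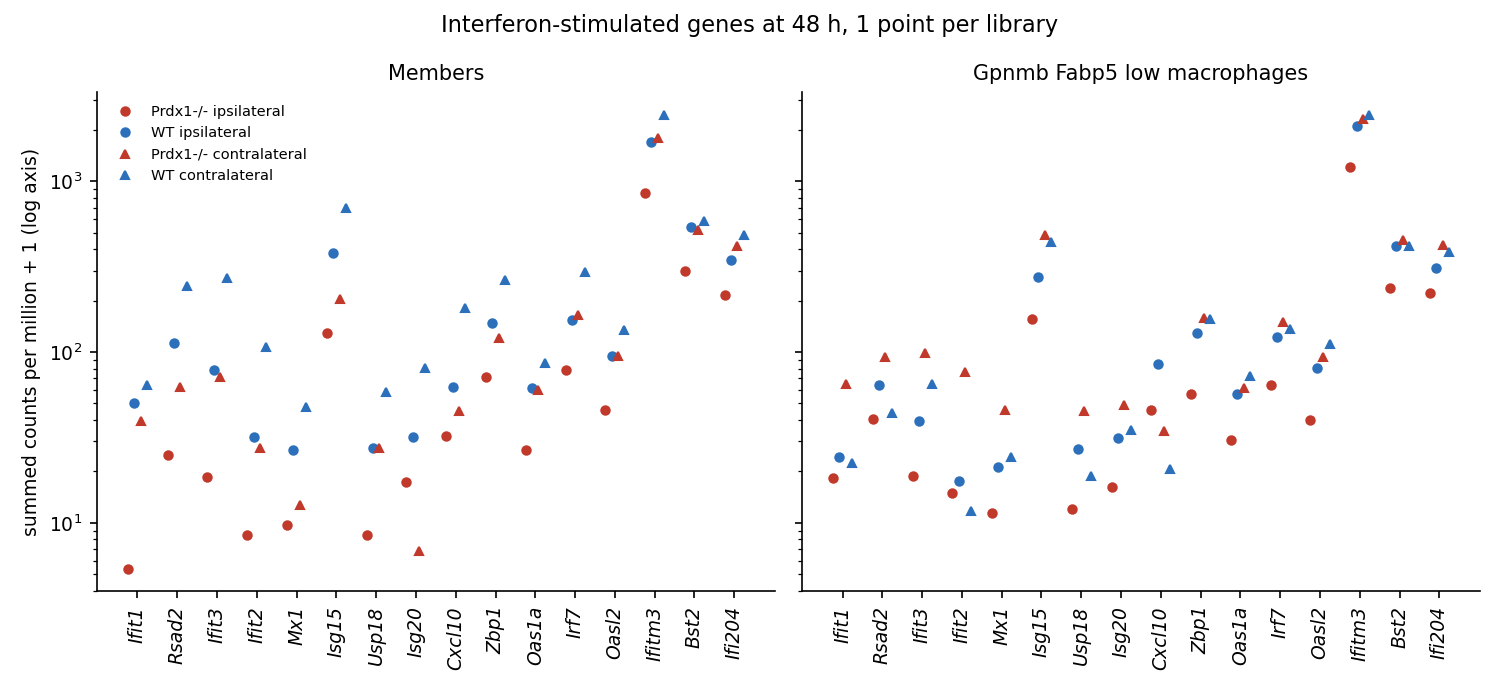
Levels of 16 of the 17 tested interferon-stimulated genes at 48 h in members and in Gpnmb Fabp5 low macrophages, summed per library, on a log axis with 1 CPM added. In members both Prdx1-/- libraries lie below the WT library of the same hemisphere for each gene, and in the low macrophages the contralateral pair is often turned round.

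Single cells showed the same order. The 18 genes summed to a median of 11.2 UMIs per 10000 in the 77 ipsilateral Prdx1-/- members, against 23.6 in the 347 WT members. Contralaterally the medians were 31.4 in the 17 Prdx1-/- and 37.4 in the 26 WT members. A few cells carried much of the contralateral counts: 1 WT cell held 123 of 343 Isg15 UMIs (35.9%), and without the highest cell of each library the list summed to 3344 CPM in contralateral Prdx1-/- and 4886 CPM in contralateral WT members, against 3697 and 6104 CPM with it. Ipsilaterally it summed to 1669 CPM in Prdx1-/- and 3817 CPM in WT members without that cell. Members with no Pf4 UMI, in which the list had a higher median, were 8 of 77 in ipsilateral Prdx1-/- and 49 of 347 in ipsilateral WT. Contralaterally they were 8 of 17 in Prdx1-/- and 11 of 26 in WT. Their medians were 14.0 and 40.8 ipsilaterally (Prdx1-/- and WT) and 53.0 and 58.6 contralaterally. Among members with Pf4 the medians were 11.2 in ipsilateral Prdx1-/- and 21.4 in ipsilateral WT, and 16.7 and 27.7 contralaterally.

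**Figure D4:**
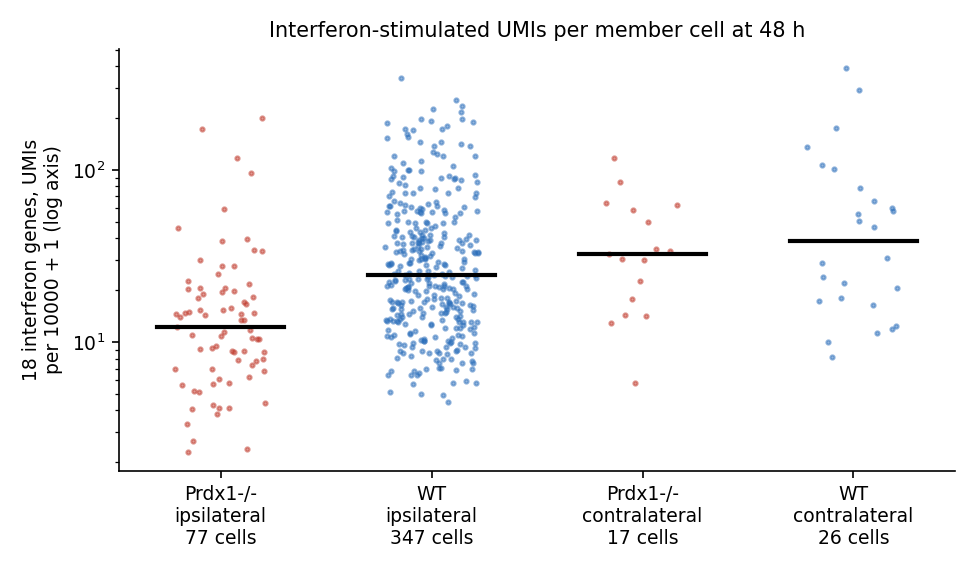
Summed UMIs of the 18 interferon-stimulated genes per 10000 UMIs in each member cell at 48 h, on a log axis with 1 added, with the median of each library as a bar. The ipsilateral Prdx1-/- members have the lowest median, 11.2, and the contralateral WT members the highest, 37.4.

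In the low macrophages of the same libraries, 2 of 17 tested interferon genes were called lower in Prdx1-/- (Oasl2 and Oas1a; 0.668% of 8531 genes were called in either direction) and the median difference was -0.49. The test of the difference between members and low macrophages passed for 5 of 17, Isg15, Rsad2, Ifit1, Ifit2 and Ifit3, where 0.269% of 8548 genes passed. For these 5, contralateral low macrophages (55 Prdx1-/- and 32 WT cells) had higher summed levels in Prdx1-/-, such as 63.8 against 21.4 CPM Ifit1. Medians of the whole list per low macrophage, scaled as for members, were not turned round. They were 26.4 in Prdx1-/- and 30.0 in WT contralaterally, and 14.0 and 27.7 ipsilaterally. The highest contralateral low macrophage held 162 Isg15 UMIs in Prdx1-/- and 87 in WT, against medians of 1 and 2. The part of such cells in the summed levels and in the difference from members was not tested. Ipsilaterally each tested interferon gene was lower in Prdx1-/- low macrophages too, such as 155 against 273 CPM Isg15. In all edgeR called 23 differences and DESeq2 0. Asking for a Gpnmb UMI left 12 of 17 interferon genes called in members, DESeq2 called 2 and the fit that added the 5 ipsilateral 24 h WT members 1, Ifit3.

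Other genes lower in Prdx1-/- members included Fabp4, Il1rn, Plaur, Ccl12 and Ly6c2. Fabp4 had 16.3 and 61.8 CPM in Prdx1-/- members, against 82.3 and 75.3 CPM in WT members (log2 difference -1.70 ± 0.24, SE, edgeR adjusted p = 4.2e-10), and was the only one of 16 tested genes of the lipid-associated program to pass. The interleukin-1 receptor antagonist Il1rn had 190 and 73.5 CPM, against 383 and 250 CPM (-1.27 ± 0.17, SE), and the protease receptor Plaur 283 and 176 CPM, against 462 and 362 CPM (-0.88 ± 0.16, SE). Antigen presentation had 3 of 13 tested genes lower, the class I genes B2m and H2-T23 and the proteasome subunit Psmb9. The chemokine Ccl12 had 31.9 and 82.3 CPM, against 128 and 102 CPM (-1.51 ± 0.21, SE), and the monocyte antigen Ly6c2 80.8 and 82.3 CPM, against 168 and 368 CPM (-1.48 ± 0.17, SE).

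Fewer genes were higher in Prdx1-/- members. Cx3cr1, the fractalkine receptor, had 44.5 and 153 CPM in Prdx1-/- members, against 32.2 and 40.7 CPM in WT members (log2 difference 0.85 ± 0.21, SE, edgeR adjusted p = 0.00433). The efferocytosis ligand Gas6 had 44.5 and 67.6 CPM, against 31.2 and 8.14 CPM. The transcription factor Klf2 had 247 and 144 CPM, against 131 and 104 CPM. The gap between genotypes was wider contralaterally for Cx3cr1 and Gas6 and ipsilaterally for Klf2. The chitinase-like gene Chil3 had 5540 and 6849 CPM, against 3730 and 3514 CPM. The chemokine Ccl3 had 460 and 759 CPM, against 280 and 419 CPM, and the matrix protein Ecm1 1092 and 1094 CPM, against 732 and 726 CPM. The neutrophil transcripts S100a8, S100a9 and Lcn2 were also higher. Of 11 tested neutrophil genes 6 were higher and 1 lower, and the part of free neutrophil RNA in these was not tested: the summed neutrophil genes of members ran to 1273 CPM in ipsilateral and 700 CPM in contralateral Prdx1-/-, against 742 and 684 CPM in WT. None of 24 lysosomal, 16 NRF2-target, 9 heme and iron, 20 oxidative phosphorylation or 11 cholesterol-efflux genes tested passed in either direction with edgeR. At an unadjusted p under 0.05, 460 of 5998 genes passed in all.

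The hemisphere comparison set ipsilateral against contralateral members at 48 h. In edgeR's test 167 of 5998 genes (2.78%) passed, 93 higher (1.55%) and 74 lower (1.23%) ipsilaterally, 160 with the same sign in both genotypes. DESeq2 called 13 of 3102 (0.419%), all of them also called by edgeR, and the fit with the 5 ipsilateral 24 h WT members called 5: Nr4a2 and S100a9 higher, and Plk2, Fos and Ifit3 lower. In the low macrophages 240 of 8531 genes were called (2.81%), and the difference between members and low macrophages passed for 30 of 8548 (0.351%; DESeq2 called 1). The contralateral members number 17 and 26, so genes carried by few cells weigh more there. Each hemisphere had 1 library per genotype at 48 h, and the 2 genotypes served as its replicates.

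Spp1, osteopontin, was lower in the occluded hemisphere. It had 4067 and 5092 CPM in ipsilateral members (Prdx1-/- and WT, in this order throughout), against 10972 and 9677 CPM in contralateral members (log2 difference -1.22 ± 0.17, SE, edgeR adjusted p = 5.7e-10; DESeq2 adjusted p = 9.45e-07). The groups did not overlap, and the decrease was larger than in the low macrophages (difference -0.70, edgeR adjusted p = 4.6e-06). The median member held 19 and 13 Spp1 UMIs ipsilaterally and 50 and 129 contralaterally. The highest cell held 871 and 1486 ipsilaterally and 1664 and 562 contralaterally. With 17 contralateral Prdx1-/- members, that 1 cell weighs heavily in their sum. Its part in the size of the decrease and in the difference from low macrophages was not tested. It was the only gene of 16 tested in the lipid-associated program to fall, and Cd36, a fatty acid receptor, the only one to rise, at 175 and 76.9 CPM ipsilaterally, against 8.82 and 85.5 CPM contralaterally, where the WT pair went against the call.

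Inflammatory and alternative-activation genes rose side by side ipsilaterally. Of 11 tested inflammatory cytokine genes 4 rose and 2 fell, and of 10 tested alternative-activation genes 3 rose. Il1b had 3326 and 3137 CPM, against 1403 and 2281 CPM contralaterally (0.81 ± 0.17, SE, edgeR adjusted p = 0.000198). Tnf had 203 and 135 CPM, against 47.1 and 63.1 CPM (1.48 ± 0.22, SE). Arg1 had 3314 and 2469 CPM, against 1656 and 1957 CPM (0.63 ± 0.17, SE, edgeR adjusted p = 0.00846). The receptor antagonist Il1rn and the chemokine Ccl24 rose as well. The cytokine Osm fell, at 328 and 331 CPM, against 779 and 574 CPM (-1.05 ± 0.16, SE; DESeq2 adjusted p = 0.00792).

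Some genes of oxidative stress and of cholesterol efflux were higher ipsilaterally. Of 16 tested NRF2 targets 5 rose and none fell, and of 11 tested efflux genes 2 rose (median 0.04). Srxn1, which repairs oxidised peroxiredoxins, had 142 and 138 CPM, against 49.99 and 54.93 CPM contralaterally (1.36 ± 0.23, SE, edgeR adjusted p = 6.4e-07), and Sqstm1, Gsr and Txnrd1 also passed. The exporter Abca1 had 337 and 332 CPM, against 232 and 220 CPM (0.53 ± 0.17, SE), and the phospholipid transfer protein Pltp 116 and 124 CPM, against 41.2 and 77.3 CPM (0.93 ± 0.23, SE). Pltp differed in this from the low macrophages (difference 1.36, edgeR adjusted p = 0.00143). None of 24 lysosomal, 12 lipid-storage or 9 heme and iron genes passed in either direction with edgeR, while 659 of 5998 genes passed an unadjusted p under 0.05.

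**Figure D5:**
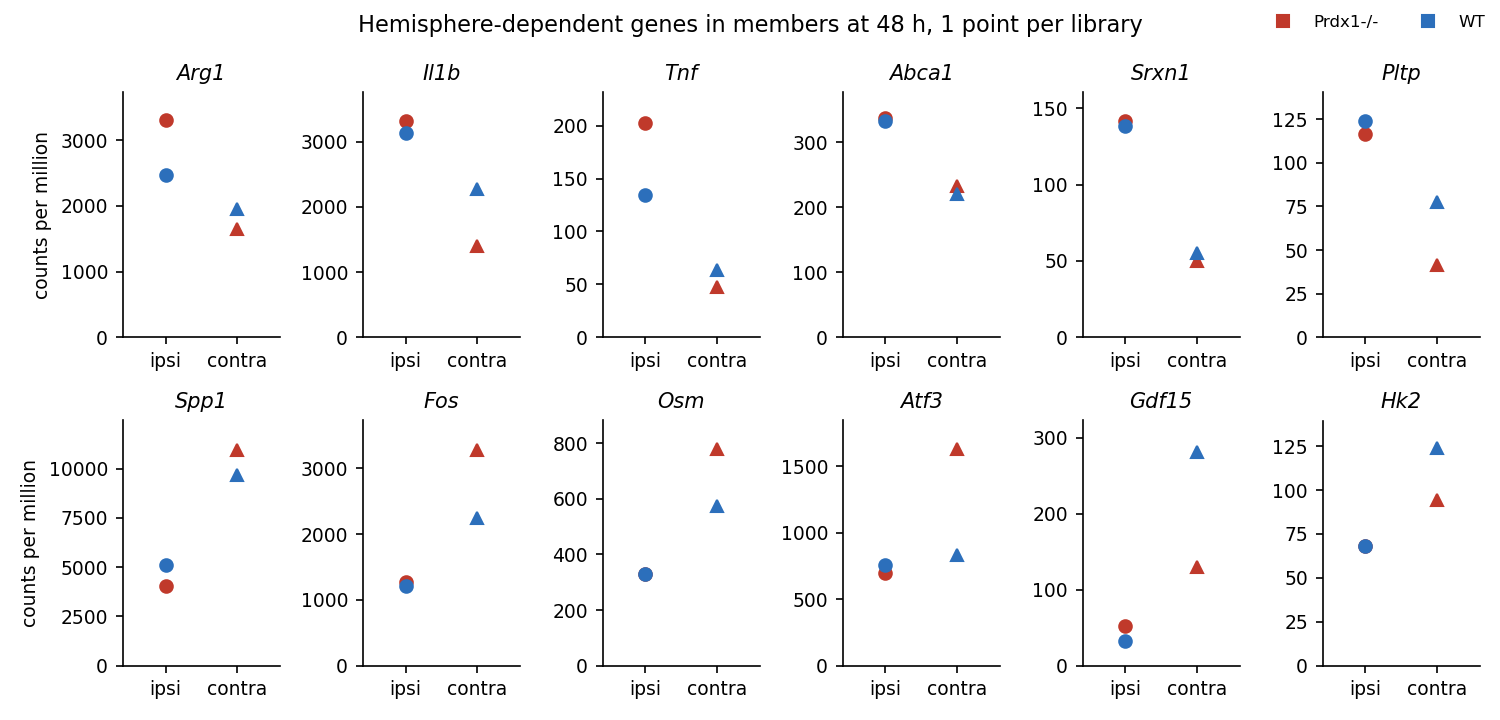
Levels of 12 hemisphere-dependent genes in ipsilateral and contralateral members at 48 h, in CPM on axes that start at 0, 1 point per library. The upper 6 genes are higher and the lower 6 lower in both ipsilateral libraries than in both contralateral ones.

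Interferon genes were lower ipsilaterally, and so were the stress genes Gdf15 and Atf3. Gdf15, a stress cytokine, had 52.6 and 32.3 CPM, against 129 and 281 CPM contralaterally (-2.46 ± 0.20, SE; DESeq2 adjusted p = 0.00559), and the stress factor Atf3 698 and 756 CPM, against 1629 and 830 CPM. Of 17 tested interferon genes 11 fell and none rose (median -0.86, beside -0.01 over all genes), and with the added 24 h library 1 was called. Among 20 tested genes known to respond to tissue dissociation, 4 fell and 3 rose. Fos had 1280 and 1213 CPM, against 3285 and 2250 CPM (DESeq2 adjusted p = 1.34e-05), and Egr1 89.6 and 70.9 CPM, against 35.3 and 20.3 CPM, so these genes did not move one way. The glycolytic enzyme Hk2 and the hypoxia gene Ero1l fell by 0.75 ± 0.21 and 0.70 ± 0.21 (SE).

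Some of the hemisphere calls lay in Cd74, which the low macrophages also hold, or in transcripts of other cells. Cd74 had 146 and 191 CPM, against 26.5 and 32.6 CPM contralaterally, beside class II genes on which the members were limited. The hemoglobin genes Hbb-bs, Hba-a1 and Hba-a2 rose in members by 0.85 ± 0.19, 1.46 ± 0.37 and 1.81 ± 0.46 (SE), with erythrocyte genes summing to 323 and 273 CPM ipsilaterally and 156 and 136 CPM contralaterally. The platelet chemokine Ppbp and S100a9 of neutrophils rose as well. The part of free RNA in these was not tested.

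Time could be tested only with libraries of at least 5 members, 4 at 48 h and the ipsilateral pair at 24 h. Of 4902 genes, 6 passed edgeR's test (0.122%), and 463 passed an unadjusted p under 0.05. Apoe, the main lipid carrier of the brain, was higher at 48 h: 20016 and 25138 CPM in ipsilateral Prdx1-/- and WT members and 22194 and 20426 CPM in contralateral ones, against 5980 and 11150 CPM at 24 h (log2 difference 1.38 ± 0.19, SE, edgeR adjusted p = 0.0288). Selenop, which carries selenium, had 205 to 259 CPM in the 48 h libraries, against 66.7 and 47.0 CPM in the Prdx1-/- and WT libraries of 24 h (1.86 ± 0.31, SE, edgeR adjusted p = 0.0463). Lower at 48 h were the arginine-producing enzyme Ass1 (12.5 to 24.4 CPM, against 66.7 and 153 CPM), Hk2, the adaptor Dok2 and the tetraspanin Cd9 (284 to 413 CPM, against 604 and 741 CPM). The 48 h and 24 h groups did not overlap in any of these 6 genes, but the test itself chose them, so this adds no support. The 24 h values rest on 15 and 5 cells, and in the 15 the lipid-associated program went against the name.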

How the data were processed

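Single-cell RNA sequencing of sorted live brain cells gave 8 libraries, 1 for each combination of labelled genotype, hemisphere and time. The deposited files hold unnormalized UMI counts, as whole numbers, for each gene in each cell. The submitters' processing notes name Cell Ranger, Seurat and mm10; versions and settings are not given in the sources used here. The members, the gene lists and the tests were chosen with earlier results of these data known.

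CPM values are counts summed over a library's cells of a kind, per 1000000 of all their counts. Exact permutation tests, two-sided, compared log2((members + 0.5)/(cells + 1)) over 70 arrangements of the 8 libraries. Summed counts were fitted with edgeR's quasi-likelihood test (edgeR 4.0.16, R 4.3.3; robust, TMM, filterByExpr), with additive hemisphere, genotype and time terms and Benjamini-Hochberg adjustment over all genes tested (threshold 0.05). The minimum of 20 members per library first set left 3 libraries and no test, so a minimum of 10 was used: 5 libraries and 1 residual degree of freedom. The time term takes up the 24 h library, so the values rest on the 4 libraries of 48 h. The comparison with Gpnmb Fabp5 low macrophages kept the library as a block. In simulated data, 51.5% of genes changed by 1 on the log2 scale were recovered for hemisphere and 73.5% for genotype (5998 genes). Calls among unchanged genes numbered 7 and 8. The simulated counts took their spread from the estimate in these data, with 1 mean per gene, so recovery in the real data cannot be read from them. DESeq2 1.42.0 was an alternative, beside stricter cell filters, other scalings and leaving out libraries.

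Named genes passed the threshold, averaged at least 20 CPM and had the same sign in both matched pairs of libraries. The 8 largest in each direction were taken, with up to 4 per gene list by smallest p; other genes named serve as members of a list. Genes ranked against other cells went by the smallest ratio over 4 libraries, from 50 CPM. Monocytes, microglia and neutrophils were gated by marker UMIs after the cell numbers were seen, because the microglial and border macrophage gates first set held under 20 cells per library. Doublets were left in, and 7 ipsilateral 48 h WT members and 1 ipsilateral 24 h Prdx1-/- member carried a doublet call from simulated doublets. Single values of a few genes are not reported here, while counts over lists include them.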

Additional observations from a re-analysis of the deposited data

Results flagged for a closer look

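The share of members in the WT libraries was highest in the ipsilateral 48 h library, at 6.75%, and its gap to the next WT library (0.625%) was large against the range of the 4. These 4 libraries differ in time and hemisphere and are not replicates, so no chance rate applies.

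Of the 30 genes called for the hemisphere at 48 h, 13 that belong to the named genes or to a gene list and also passed in members are given here. In these the effect in members differed from that in Gpnmb Fabp5 low macrophages by edgeR's test of the difference. On the log2 scale (members minus low macrophages), the effect was higher in members for Hba-a2 by 3.04, Cd74 by 2.90, Hba-a1 by 2.73, Hbb-bs by 1.40, Egr1 by 1.37, Pltp by 1.36, Marcksl1 by 1.32, Timp1 by 1.21 and Plac8 by 0.80. The differences of the other 4 were -4.21 for Il6, -2.43 for Cxcl10, -2.14 for Plk2 and -0.70 for Spp1. Of the 23 genes the same test called for genotype, 12 chosen in the same way are given here. The difference was 1.28 for Cx3cr1. It was -2.90 for Ifit2, -2.72 for Ifit1, -2.39 for Ccl12, -2.08 for Rsad2, -2.02 for Areg, -1.81 for Ly6c2, -1.77 for Slpi, -1.68 for Ifit3, -1.23 for Isg15, -0.80 for S100a8 and -0.52 for Chil3. Il6 had 12.5 and 3.54 CPM in ipsilateral members (Prdx1-/- and WT), against 2.94 and 52.9 CPM in contralateral members, so its direction differed between the genotypes. In low macrophages Hbb-bs had 1208 and 893 CPM ipsilaterally (Prdx1-/- and WT), against 111 and 5445 CPM contralaterally, the last from 32 cells. Hba-a1 and Hba-a2 had the same order, so their direction in low macrophages also differed between the genotypes. The hemoglobin differences thus depend on the contralateral WT library of low macrophages. The part of free RNA in the hemoglobin genes was not tested.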

How the results depend on the processing

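The time difference in share passed no longer without any one 48 h library (exact permutation p = 0.0571, values 4.16 to 5.51) or in the ipsilateral libraries alone (4.26, p = 0.333, the smallest 2 against 2 libraries allow), and without one 24 h library it was 4.26 to 5.87 (p = 0.0286). The genotype difference in share ran from -1.93 to 1.18 over the libraries left out and was 1.18 without the ipsilateral 48 h WT library, 0.04 without the contralateral 48 h WT library and 1.08 without the contralateral 24 h Prdx1-/- library.

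Against 167 genes for hemisphere and 104 for genotype, DESeq2 called 13 and 3, and the fit with at least 5 members per library (chosen after seeing the data) 5 and 1. Asking for a Gpnmb UMI gave 52 for genotype, 49 of them among the 104. The differences between members and low macrophages, 30 for hemisphere and 23 for genotype, became 14 and 13 without doublet calls, 1 and 0 with DESeq2, and 18 for hemisphere without the filter on low counts. Without the 24 h library the counts were 154 and 91. Dropping any 48 h library, fitting the ipsilateral libraries alone, at least 20 or 50 members per library and Gpnmb + Fabp5 at least 40 left no residual degree of freedom and could not be fitted. The time effect and its difference from the low macrophages could not be fitted as planned. The labels give no replicate numbers and each group holds 1 library, so libraries were paired only by time and genotype, for the hemisphere share (3.36, exact permutation p = 0.125).

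Of genes in lists or named, signs turned for values that did not pass. With a Gpnmb UMI asked for, this held for Fabp4 (0.00041) and Ly6a (0.87) by hemisphere and Gdf15 (0.18) and Hbb-bs (-0.058) by genotype. Without the low-count filter Ly6a was 0.011 by hemisphere. With DESeq2, Cd36 was -0.98 and Hba-a2 0.12 by genotype, and without doublet calls Ptgds was 0.0065. With at least 5 members per library, the genotype values were Ctsl 0.36, Hilpda 0.43, Atf3 -0.45, Il1b 0.25, Cxcl1 0.068, Vegfa 0.14, Cfp 0.11, Prdx6 0.11, Ier3 0.18, Aif1 0.12 and Hba-a2 0.053. Members held 1596690 UMIs in Prdx1-/- and 6497988 in WT ipsilaterally, against 340045 and 491491 contralaterally, where depth limits the values most.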
